A study of Homo sapiens with 2 samples.

Results

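MYC, the proteins that share its partner MAX, and the factors that build ribosomes in the nucleolus were followed as one set of 48 genes. The set was written as a list of gene symbols by function, with earlier results of these data known. All 48 symbols were among the 25268 in each of the 2 deposited tables. The set held 10 genes of the MYC network and 38 genes of ribosome biogenesis. The cells were C4-2B MDVR, a human line derived from LNCaP prostate cancer cells that grows without androgen, is resistant to the androgen receptor blocker enzalutamide and was cultured with 20 µM of it. The Indocin library came from cells given 20 µM Indocin for 3 days, and the DMSO library from cells given the vehicle for the same 3 days. Both cultures had enzalutamide throughout. Indocin, or indomethacin, is a cyclooxygenase inhibitor that also blocks AKR1C3, an enzyme that makes androgens. Messenger RNA was measured by RNA-seq.

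With 1 library per group, none of the differences below could be checked against replicates, and there is no test, error or p-value. Values are FPKM, fragment numbers divided by transcript length and library size, so levels can be set side by side between genes. The number of reads behind them is unknown. A log2 ratio is log2((Indocin FPKM + 1)/(DMSO FPKM + 1)), which understates the difference of genes with low values. The 11965 genes whose mean over both libraries was 1 FPKM or more, short RNA genes left out, are called tested genes here. Their median ratio was -0.02, with quartiles of -0.15 and 0.11. The FPKM of all genes summed to 583096 in the Indocin library and 617510 in the DMSO library. Of tested genes 55.2% had ratios below 0, 11.7% were at least 1.2-fold lower and 9.90% as much higher. With a mean of at least 10 FPKM these shares were 63.9%, 13.4% and 6.19%. Among 8 luminal prostate markers 6 had ratios below 0 (75%), 4 were at least 1.2-fold lower (50%) and 1 was as much higher (12.5%). The lowest was SLC45A3, at 153 FPKM with Indocin and 218 FPKM with DMSO (-0.51), and the highest CDH1, at 134 FPKM with Indocin and 110 FPKM with DMSO (0.29). These 8 summed to 1299 FPKM in the Indocin library and 1508 FPKM in the DMSO library, and their part in the results below was not tested. The 4 basal markers summed to 3.97 FPKM with Indocin and 4.22 FPKM with DMSO, most of it ITGB4 (3.62 FPKM with Indocin and 3.67 FPKM with DMSO), with KRT5 and TP63 at most 0.0237 FPKM in either library. The 6 fibroblast markers summed to 5.08 FPKM with Indocin and 4.72 FPKM with DMSO, most of it COL1A1 (4.80 FPKM with Indocin and 4.54 FPKM with DMSO), and COL1A2, COL3A1 and DCN were listed at 0 in both. The 4 neuroendocrine markers summed to 0.730 FPKM with Indocin and 0.635 FPKM with DMSO, and the 5 leukocyte markers to 0.521 FPKM with Indocin and 0.776 FPKM with DMSO, with INSM1 of the first list and CD3E of the second at 0 in both.

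MYC is a transcription factor that pairs with MAX and binds the E-box CACGTG near the starts of many genes. MXD proteins, MNT and MGA pair with the same MAX and act against MYC at such sites. Among the best known targets of MYC are genes for making ribosomes: RNA polymerase I, which transcribes ribosomal RNA, the guide-RNA-bound enzymes that modify it, and the factors that cut, fold and assemble it into the small and large ribosomal subunits. In prostate cancer MYC is often present at raised levels.

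RefSeq promoter windows (build GRCh38.p14, 250 bases before to 50 bases from the start of the gene) were at hand for 39 of the 48 genes, 30 of them biogenesis genes. There was no window for MYC, POLR1E, NOLC1, TCOF1, NOP58, RRP12, RRS1, RRP1B and BOP1. CACGTG, which reads the same on both strands, was in a window of 13 of the 30 biogenesis genes (43.3%), against 13.1% of 8908 tested genes and 8.77% of all 27305 genes of the table. Counted by window, the share was 33.3% of 39 windows for the biogenesis genes and 7.26% of all windows. Median GC content was 63.7% in the biogenesis windows, 65.0% in those of tested genes and 58.7% in all windows. The windows of 5 genes are shown, in lower case with CACGTG in capitals: of the biogenesis genes, the 3 with the lowest ratios among those that hold it, the 1 with the highest ratio among those, and the 1 with the lowest ratio among those without it. Of the MYC network genes, MXD4 and MNT also hold it.
GNL2, chr1:37595888-37596187, minus strand: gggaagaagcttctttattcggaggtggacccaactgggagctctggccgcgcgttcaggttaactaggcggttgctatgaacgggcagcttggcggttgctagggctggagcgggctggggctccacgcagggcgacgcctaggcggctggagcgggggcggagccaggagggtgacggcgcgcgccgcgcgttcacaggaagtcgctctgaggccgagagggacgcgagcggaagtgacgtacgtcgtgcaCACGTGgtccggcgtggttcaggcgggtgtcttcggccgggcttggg
NOP2, chr12:6568242-6568541, minus strand: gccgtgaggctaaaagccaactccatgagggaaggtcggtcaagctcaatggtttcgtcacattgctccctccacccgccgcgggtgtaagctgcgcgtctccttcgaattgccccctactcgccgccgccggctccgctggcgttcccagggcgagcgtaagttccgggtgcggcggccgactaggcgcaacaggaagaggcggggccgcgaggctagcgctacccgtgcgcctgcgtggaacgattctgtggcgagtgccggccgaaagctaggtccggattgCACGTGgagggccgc
GAR1, chr4:109815512-109815811, plus strand: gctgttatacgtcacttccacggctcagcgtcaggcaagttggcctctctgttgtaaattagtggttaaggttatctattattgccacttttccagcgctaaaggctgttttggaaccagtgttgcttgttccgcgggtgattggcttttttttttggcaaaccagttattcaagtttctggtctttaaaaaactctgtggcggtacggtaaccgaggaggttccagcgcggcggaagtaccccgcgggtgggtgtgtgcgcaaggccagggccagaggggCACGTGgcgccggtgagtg
GNL3, chr3:52685782-52686081, plus strand: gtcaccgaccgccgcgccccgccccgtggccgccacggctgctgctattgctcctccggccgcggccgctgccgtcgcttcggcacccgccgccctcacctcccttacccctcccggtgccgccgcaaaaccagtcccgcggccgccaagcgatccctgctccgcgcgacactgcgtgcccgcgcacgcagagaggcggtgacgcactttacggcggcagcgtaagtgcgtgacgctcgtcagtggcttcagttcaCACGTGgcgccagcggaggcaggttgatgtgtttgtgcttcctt
NOP16, chr5:176388549-176388848, minus strand: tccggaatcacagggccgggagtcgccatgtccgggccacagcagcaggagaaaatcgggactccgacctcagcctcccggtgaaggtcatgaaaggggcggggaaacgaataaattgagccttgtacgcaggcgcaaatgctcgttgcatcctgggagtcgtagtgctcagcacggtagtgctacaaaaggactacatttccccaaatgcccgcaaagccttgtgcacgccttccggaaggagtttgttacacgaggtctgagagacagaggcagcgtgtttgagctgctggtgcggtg
In GNL2 the motif began at base 4 from the start of the gene, in GNL3 at base 7, in GAR1 at base 32 and in NOP2 at base 36, counting the start as base 1. Genes with and without the motif had overlapping ratios. The 13 biogenesis genes with CACGTG had a median log2 ratio of -0.29 (lowest -0.35, highest -0.02), and the 17 without it had a median of -0.26 (lowest -0.45, highest -0.04). A match of letters is a description and does not show binding.

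In the MYC family, MYC itself was the main transcript in both libraries. It stood at 81.6 FPKM in the Indocin library and 114 FPKM in the DMSO library, 28.4% lower with Indocin, with a log2 ratio of -0.48. This was the ratio at rank 243 from the lowest of 11965 tested genes. MYCL, a paralog amplified in some small cell lung cancers, stood at 8.12 FPKM in the Indocin library and 6.20 FPKM in the DMSO library (log2 ratio 0.34). MYCN, the third paralog, was listed at 0 in both libraries and did not reach the minimum mean. The 3 paralogs together held 89.7 FPKM in the Indocin library and 120 FPKM in the DMSO library, so the higher MYCL value was small beside the lower MYC value.

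The partner and antagonist genes did not differ in 1 direction. MAX stood at 31.7 FPKM in the Indocin library and 34.9 FPKM in the DMSO library (log2 ratio -0.13). MXD1 stood at 1.60 FPKM in the Indocin library and 1.12 FPKM in the DMSO library (0.30), 1.43-fold higher with Indocin as plain FPKM. MXD4 stood at 19.6 FPKM in the Indocin library and 16.3 FPKM in the DMSO library (0.25). Exons of MXD1 overlap on the same strand with those of the far more abundant SNRNP27 (17.1 FPKM with Indocin and 18.0 FPKM with DMSO), which makes the low MXD1 value uncertain. These 2 repressors and MXI1, at 24.0 FPKM in the Indocin library and 22.3 FPKM in the DMSO library (0.10), were the antagonists with ratios above 0. MXD3, whose mouse homologue is expressed in S phase, stood at 27.6 FPKM in the Indocin library and 32.7 FPKM in the DMSO library (-0.24). Its exons overlap on the same strand with those of RAB24, which stood at 39.9 FPKM in the Indocin library and 29.9 FPKM in the DMSO library, so the division of reads between them is uncertain. Exons of MXD3 also overlap, on the opposite strand, those of PRELID1, at 171 FPKM with Indocin and 191 FPKM with DMSO. The MXD3 value is thus also uncertain where reads were counted without strand. MNT stood at 12.7 FPKM in the Indocin library and 13.3 FPKM in the DMSO library (-0.06), and MGA, a very large protein that is also part of a Polycomb complex, at 3.38 FPKM with Indocin and 3.46 FPKM with DMSO (-0.02, and 0.0013 with centring and 0.0085 with equal sums).

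The genes with low values depended on the pseudocount. With 0.1 FPKM in place of 1 FPKM, MXD1 had a ratio of 0.48 and MYCL one of 0.38, beside -0.48 for MYC. With 5 FPKM, MYCL (0.23) and MXD1 (0.11) were short of 1.2-fold, where a log2 ratio of 0.26 is needed. With the ratios' trend over length, GC content and expression removed, MXD1 was also short of it (0.19), and MXD4 was past it (0.29), as it was with centring, equal upper quartiles or equal sums (0.27 to 0.29).

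Set against the antagonists, the MYC level was thus lower in the Indocin library. The 6 genes MXD1, MXD3, MXD4, MXI1, MNT and MGA summed to 88.7 FPKM in the Indocin library and 89.2 FPKM in the DMSO library. MYC divided by this sum was 0.920 in the Indocin library and 1.28 in the DMSO library. MYC divided by MAX was 2.57 in the Indocin library and 3.27 in the DMSO library. These are transcript levels, and protein was not measured.

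**Figure D1:**
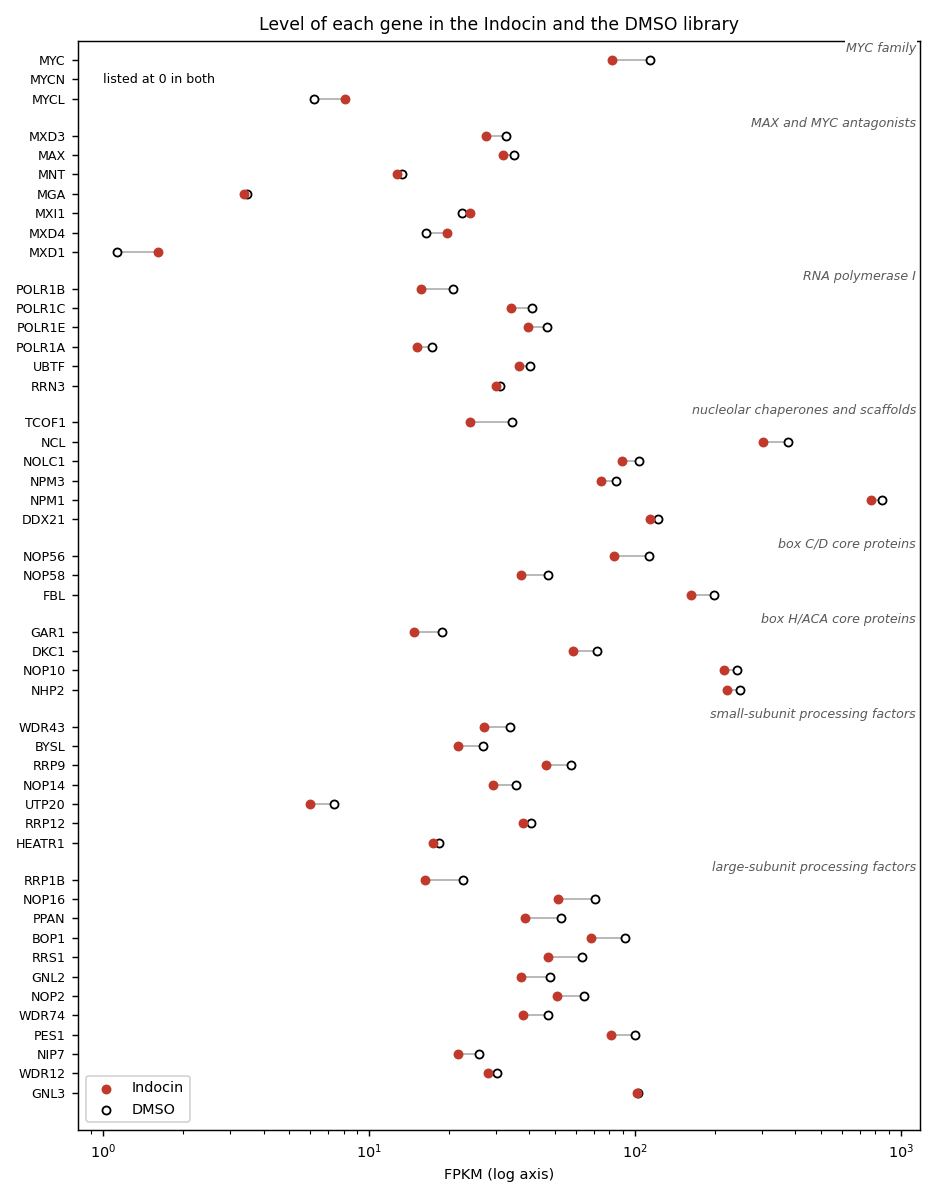
FPKM on a log axis of each of the 48 genes in the Indocin library (filled red points) and the DMSO library (open points), 1 library each, grouped by role and joined by a grey line per gene. The red point lies left of the open point for MYC and for all 38 biogenesis genes, and right of it for MYCL, MXD1, MXD4 and MXI1.

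All 38 biogenesis genes were measured, and all 38 had ratios below 0 (37 with equal sums), that is lower values in the Indocin library. The background for this count was 55.2% of tested genes below 0, and 63.9% of the 6798 tested genes whose mean reached 10 FPKM. With equal sums of both libraries, a scaling given in brackets beside this and some later counts, it was 47.2% of tested genes. Counts without such a bracket could also change with this scaling. Their median log2 ratio was -0.29 (quartiles -0.33 and -0.17), against -0.02 for all tested genes and -0.06 for those with a mean of at least 10 FPKM. Of the 38, 21 were 1.2-fold lower or more and none 1.2-fold higher, on the log2 ratio scale, where a 1.2-fold difference is 0.26. Among all tested genes 11.7% were at least 1.2-fold lower and 9.90% at least 1.2-fold higher. With a mean of at least 10 FPKM these shares were 13.4% and 6.19%. At 1.5-fold none of the 47 measured genes of the set was lower or higher, where 0.744% of tested genes were lower and 2.19% higher (0.809% and 1.72% of those with a mean of at least 10 FPKM). The difference was thus shared by many genes and small in each. Exons of 12 genes of the set overlap an exon of a gene on the opposite strand, among them NOP16, which overlaps HIGD2A (139 FPKM with Indocin and 148 FPKM with DMSO), and such pairs are uncertain where reads were counted without strand. FPKM of the 38 summed to 3099.7 in the Indocin library and 3637 in the DMSO library, 14.8% lower with Indocin, and that of all tested genes was 5.46% lower. The sum over all tested genes includes BCYRN1, which the scaling to equal sums leaves out. With that scaling the median ratio was -0.25 for the 38 and 0.01 for all tested genes. After scaling to equal sums, 14 of the 38 were at least 1.2-fold lower, and 8.76% of tested genes were at least 1.2-fold lower and 12.5% as much higher.

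RNA polymerase I transcribes the ribosomal RNA precursor, and its 6 genes had a median log2 ratio of -0.21. POLR1B, the second-largest subunit of its catalytic core, stood at 15.7 FPKM in the Indocin library and 20.6 FPKM in the DMSO library (-0.37). POLR1A, the largest subunit, stood at 15.1 FPKM in the Indocin library and 17.3 FPKM in the DMSO library (-0.18). POLR1B was the only one of the 6 past 1.2-fold. POLR1C, a subunit shared with RNA polymerase III, stood at 34.0 FPKM in the Indocin library and 40.8 FPKM in the DMSO library (-0.26), just short of 1.2-fold. POLR1E, a subunit that takes part in initiation, stood at 39.5 FPKM in the Indocin library and 46.6 FPKM in the DMSO library (-0.24). The initiation factors outside the enzyme differed least: UBTF, which coats active ribosomal DNA, stood at 36.7 FPKM in the Indocin library and 40.2 FPKM in the DMSO library (-0.13), and RRN3, which recruits the polymerase, at 30.1 FPKM with Indocin and 30.9 FPKM with DMSO (-0.04).

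The nucleolar chaperones and scaffolds ranged widely. TCOF1, which encodes treacle, a scaffold that links ribosomal DNA transcription with RNA modification, had the lowest ratio of the whole set. It stood at 23.8 FPKM in the Indocin library and 34.4 FPKM in the DMSO library (-0.51), 30.8% lower with Indocin, at rank 184 from the lowest of 11965 tested genes. NCL, nucleolin, stood at 302 FPKM in the Indocin library and 374 FPKM in the DMSO library (-0.31). NOLC1, a partner of treacle and of the modifying enzymes, stood at 88.9 FPKM in the Indocin library and 103 FPKM in the DMSO library (-0.21). TCOF1 and NCL were past 1.2-fold and the other 4 were not. NPM1, a histone and ribosome chaperone and the most abundant transcript of the set, stood at 768 FPKM in the Indocin library and 848 FPKM in the DMSO library (-0.14). GENCODE names 43 processed pseudogenes after NPM1, so its value could hold misassigned reads. Its relative NPM3 stood at 74.3 FPKM in the Indocin library and 84.5 FPKM in the DMSO library (-0.18), and the RNA helicase DDX21 at 114 FPKM with Indocin and 122 FPKM with DMSO (-0.10).

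The box C/D proteins methylate ribosomal RNA at sites set by guide RNAs, and the 3 of them in the set were past 1.2-fold. NOP56, a core scaffold, stood at 83.5 FPKM in the Indocin library and 113 FPKM in the DMSO library (-0.43). NOP58, its partner, stood at 37.1 FPKM in the Indocin library and 47.1 FPKM in the DMSO library (-0.34). FBL, fibrillarin, the methyltransferase, stood at 163 FPKM in the Indocin library and 197 FPKM in the DMSO library (-0.28). The median of these 3 was -0.34. FBL was short of 1.2-fold (-0.25 to -0.22) with centring, equal upper quartiles, equal sums or the trend removed. NHP2L1, a further box C/D core protein, is counted below with the other small-subunit factors. It stood at 139 FPKM in the Indocin library and 164 FPKM in the DMSO library (-0.24), short of 1.2-fold.

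The box H/ACA proteins, which convert uridine to pseudouridine, split by gene. GAR1 stood at 14.7 FPKM in the Indocin library and 18.7 FPKM in the DMSO library (-0.33), and DKC1, dyskerin, the enzyme, at 58.5 FPKM with Indocin and 71.5 FPKM with DMSO (-0.29). The small core proteins NHP2, at 221 FPKM in the Indocin library and 248 FPKM in the DMSO library (-0.16), and NOP10, at 216 FPKM with Indocin and 242 FPKM with DMSO (-0.16), were more abundant and differed less. The median of the 4 was -0.22.

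Among 7 factors of the small ribosomal subunit 4 were past 1.2-fold, with ratios from -0.31 to -0.29. The ratios of all 7 ran from -0.31 to -0.07. WDR43 stood at 27.1 FPKM in the Indocin library and 33.7 FPKM in the DMSO library (-0.31). BYSL, bystin, stood at 21.6 FPKM in the Indocin library and 26.8 FPKM in the DMSO library (-0.30). RRP9, a protein of the guide RNA particle that starts precursor cleavage, stood at 46.4 FPKM in the Indocin library and 57.3 FPKM in the DMSO library (-0.30). NOP14 was the fourth, at 29.1 FPKM in the Indocin library and 35.7 FPKM in the DMSO library (-0.29). UTP20, a large scaffold of the precursor particle and the least abundant biogenesis gene of the set, stood at 5.99 FPKM in the Indocin library and 7.37 FPKM in the DMSO library (-0.26). RRP12, an export factor, at 37.8 FPKM in the Indocin library and 40.6 FPKM in the DMSO library (-0.10), and HEATR1, at 17.4 FPKM with Indocin and 18.3 FPKM with DMSO (-0.07), were close to the median of all tested genes. The median of the 7 was -0.29.

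The large-subunit factors had a median of -0.34 over 12 genes, and 9 of them were past 1.2-fold. RRP1B, which also brings a protein phosphatase to the nucleolus, stood at 16.1 FPKM in the Indocin library and 22.5 FPKM in the DMSO library (-0.46). NOP16 stood at 51.3 FPKM in the Indocin library and 70.3 FPKM in the DMSO library (-0.45). PPAN stood at 38.4 FPKM in the Indocin library and 52.6 FPKM in the DMSO library (-0.45). These 3 were more than 27% lower with Indocin, but PPAN shares exons with the read-through gene PPAN-P2RY11, which stood at 5.10 FPKM in the Indocin library and 4.21 FPKM in the DMSO library, so part of its reads may be divided between both. RRS1, which helps to bring in the small ribosomal RNA of the large subunit, stood at 47.1 FPKM in the Indocin library and 63.2 FPKM in the DMSO library (-0.41). The GTPase GNL2 stood at 37.3 FPKM in the Indocin library and 47.8 FPKM in the DMSO library (-0.35). The RNA methyltransferase NOP2 stood at 50.9 FPKM in the Indocin library and 64.2 FPKM in the DMSO library (-0.33). WDR74 (-0.30) was also past 1.2-fold, at 38.0 FPKM in the Indocin library and 47.1 FPKM in the DMSO library, and NIP7 (-0.26), at 21.5 FPKM with Indocin and 25.8 FPKM with DMSO, fell just short of it.

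The complex of PES1, BOP1 and WDR12, needed to mature the large-subunit RNA, did not differ evenly. BOP1 stood at 68.5 FPKM in the Indocin library and 91.6 FPKM in the DMSO library (-0.42). PES1 stood at 81.0 FPKM in the Indocin library and 99.4 FPKM in the DMSO library (-0.29). WDR12 stood at 28.0 FPKM in the Indocin library and 30.2 FPKM in the DMSO library (-0.11), short of 1.2-fold. GNL3, nucleostemin, a GTPase of stem and cancer cells, differed least of all biogenesis genes, at 101 FPKM in the Indocin library and 103 FPKM in the DMSO library (-0.02). Its sign turned to above 0 under each scaling, centring and trend removal tried, up to 0.02, while the other 37 biogenesis genes stayed below 0 in all of these.

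**Figure D2:**
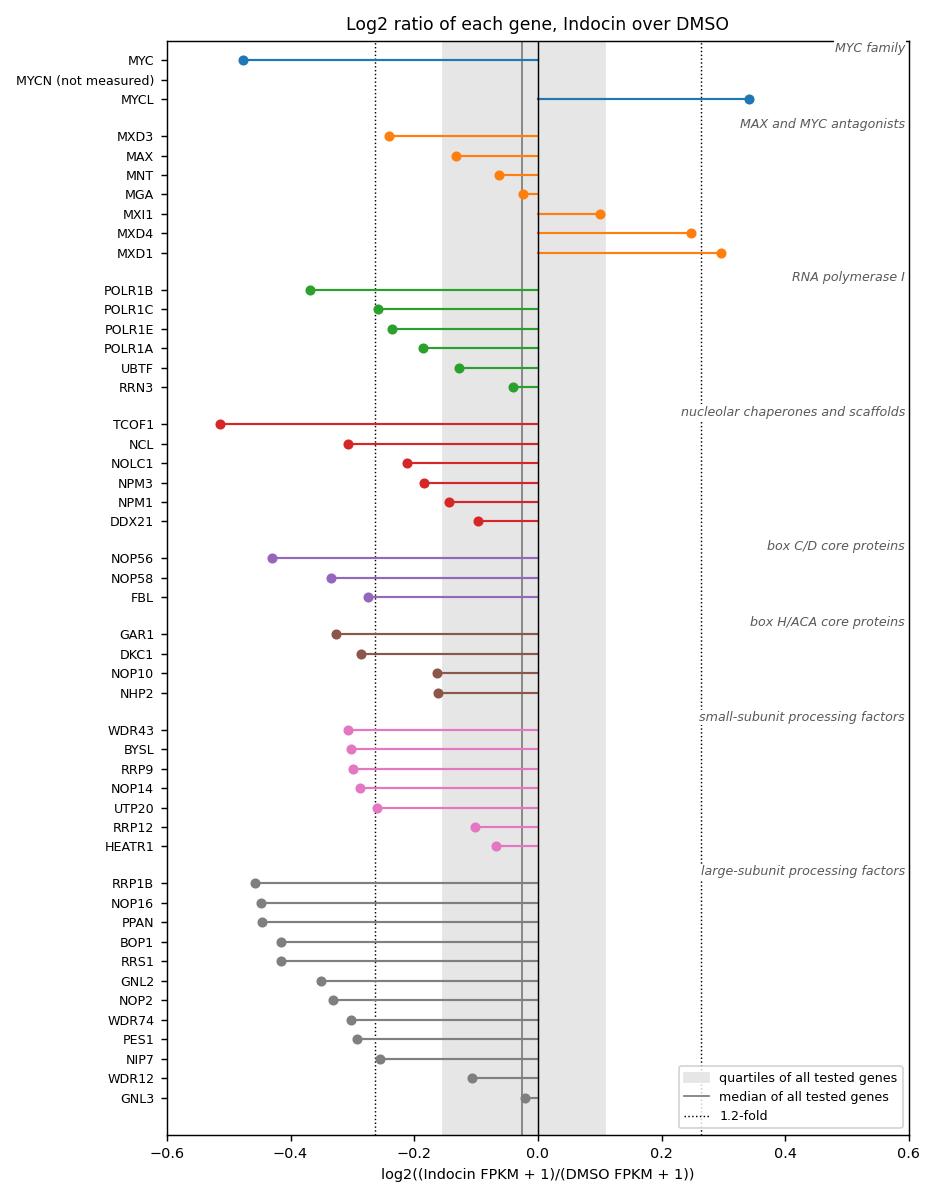
Log2 ratio of each gene, Indocin over DMSO, grouped by role, with the quartiles of all tested genes as a grey band, their median as a grey line and 1.2-fold as dotted lines. The biogenesis genes run from TCOF1 at -0.51 to GNL3 at -0.02, MYC lies at -0.48, and MYCL and MXD1 lie right of the dotted line at higher values.

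The 38 biogenesis genes differed among themselves without a close link to level. Spearman's rho of the log2 ratio with mean FPKM was 0.10 across these genes, with transcript length 0.15 and with transcript GC content -0.34. Over all tested genes the same values were -0.24, 0.08 and -0.14. These are correlations across genes that share both libraries, and genes are not independent replicates. With a trend over length, GC content and expression removed, the median of the 38 was -0.24 and that of all tested genes -0.02.

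Genes of ribosome biogenesis outside the set were taken from lists written from general knowledge of the pathway. The lists and the 1.2-fold level were chosen with earlier results of these data known. Counts of these genes, and of the lists below, are to be read beside all tested genes. Of tested genes 55.2% were below 0, 11.7% at least 1.2-fold lower and 9.90% as much higher. Among those with a mean of at least 10 FPKM the shares were 63.9%, 13.4% and 6.19%. Of 46 other small-subunit factors 44 had ratios below 0 (41 with equal sums), 15 were 1.2-fold lower or more (9 with equal sums or with the trend removed) and none was 1.2-fold higher, with a median of -0.22. The lowest were RRP7A, at 24.8 FPKM in the Indocin library and 34.1 FPKM in the DMSO library (-0.44), and the helicase DHX37, at 15.8 FPKM with Indocin and 21.7 FPKM with DMSO (-0.43). The highest were the helicase DDX49 (0.06) and UTP14A (0.02). Of 48 other large-subunit factors 42 were below 0 (38 with equal sums), 15 at least 1.2-fold lower and 1 as much higher, with a median of -0.21. The lowest were PAK1IP1, at 55.7 FPKM in the Indocin library and 79.3 FPKM in the DMSO library (-0.50), and URB2, at 6.78 FPKM with Indocin and 9.91 FPKM with DMSO (-0.49). The exception on the higher side was RSL24D1, a factor of late particles related to a ribosomal protein, at 99.1 FPKM in the Indocin library and 68.5 FPKM in the DMSO library (0.53), followed by the GTPase EFTUD1 (0.12).

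The remaining genes of RNA polymerase I had a median nearer 0 than its 6 genes in the set. Over 9 of them it was -0.08, with 7 below 0 and 2 at least 1.2-fold lower (1 where the pseudocount was 5 FPKM, or with a mean of at least 5 FPKM). These 2 were the termination factor TTF1, at 5.36 FPKM in the Indocin library and 7.70 FPKM in the DMSO library (-0.45), and the subunit CD3EAP, at 1.96 FPKM with Indocin and 2.99 FPKM with DMSO (-0.43). The subunit ZNRD1 (0.19) and the initiation factor TAF1B (0.04) were the highest. The shares below 0 and at least 1.2-fold lower were 77.8% and 22.2%, against 55.2% and 11.7% of tested genes. Whether the list differs from the 6 genes of the set was not tested.

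RNA polymerase III makes the small ribosomal RNA and transfer RNAs. Of its 21 listed genes 18 were below 0 (15 with equal sums) and 6 at least 1.2-fold lower (3 with equal sums or with a pseudocount of 5 FPKM), with a median of -0.15. The shares were 85.7% and 28.6%, against 55.2% and 11.7% of tested genes (47.2% and 8.76% with equal sums). POLR3K stood at 81.5 FPKM in the Indocin library and 109 FPKM in the DMSO library (-0.42), GTF3C2 had a ratio of -0.32, and POLR3C (0.15) and POLR3GL (0.12) were the highest. The nuclear exosome, which trims precursor RNA, had 12 of 14 genes below 0 and 5 at least 1.2-fold lower (3 where the pseudocount was 5 FPKM), with a median of -0.20. Its shares were 85.7% and 35.7%. EXOSC4 stood at 61.0 FPKM in the Indocin library and 85.2 FPKM in the DMSO library (-0.48) and EXOSC6 at 35.8 FPKM with Indocin and 49.5 FPKM with DMSO (-0.46), while EXOSC8 (0.21) and EXOSC1 (0.13) lay above 0.

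Ribosomal protein genes, whose products the biogenesis factors assemble, did not share the difference. Over 77 measured genes the median log2 ratio was 0.01, 37 were below 0 (14 with equal sums, where 47.2% of tested genes were below 0), none was at least 1.2-fold lower and 1 was as much higher. Their FPKM summed to 146865 in the Indocin library and 146851 in the DMSO library. The furthest from 0 was RPL21, at 1394 FPKM in the Indocin library and 1002 FPKM in the DMSO library (0.48). RPS26 followed, at 1110.2 FPKM with Indocin and 1295 FPKM with DMSO (-0.22). Near-identical copies of ribosomal protein genes in the genome can share reads. Such copies were not counted for any ribosomal protein gene, and their part in these values was not tested. RPL38 (-0.11) was the second lowest and RPS6 (0.07) the second highest.

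**Figure D3:**
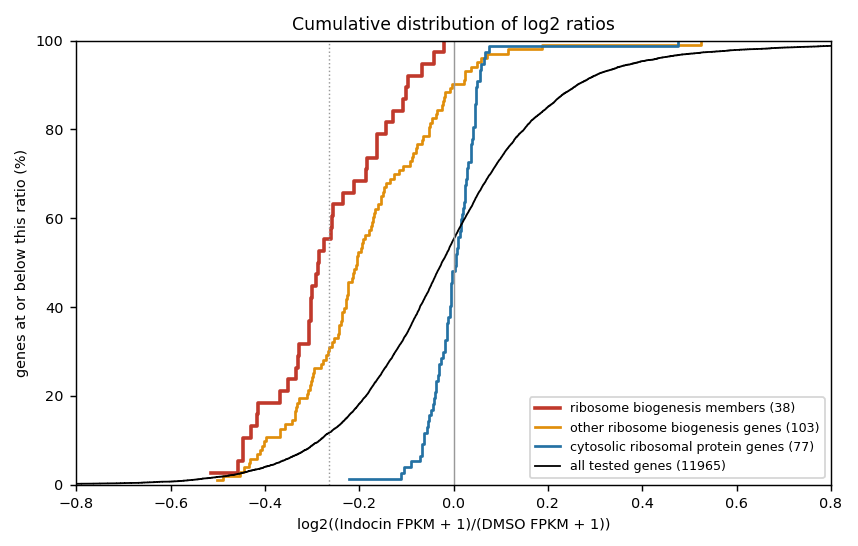
Share of genes (%) at or below each log2 ratio, Indocin over DMSO, for the 38 biogenesis genes of the set, 103 other ribosome biogenesis genes, 77 cytosolic ribosomal protein genes and all tested genes, with 1.2-fold lower as a dotted line. The curve of the 38 genes reaches 100% left of 0, that of the 103 genes stands at 90.3% at 0, and that of the ribosomal protein genes rises steeply around 0.

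Targets of MYC with other functions lay on the same side. Of 24 listed genes 23 were measured and all 23 had ratios below 0 (21 with equal sums), with 8 at least 1.2-fold lower and a median of -0.19. The shares were 100% and 34.8%, against 55.2% and 11.7% of tested genes (63.9% and 13.4% of those with a mean of at least 10 FPKM). With equal sums 47.2% of tested genes were below 0. TERT, the catalytic subunit of telomerase, stood at 0.727 FPKM in the Indocin library and 1.88 FPKM in the DMSO library (-0.74). It was the 1 gene of the list at least 1.5-fold lower, and its values were low in both libraries. CAD, the enzyme that starts pyrimidine synthesis, stood at 16.3 FPKM in the Indocin library and 22.0 FPKM in the DMSO library (-0.41). The least different were PHB2 (-0.03) and the mitochondrial chaperone HSPD1, at 763 FPKM in the Indocin library and 764 FPKM in the DMSO library. A list of 18 genes held partners of MYC, genes that control its turnover and some genes of the wider MAX network. Of the 18, 14 were below 0 and 4 at least 1.2-fold lower (2 with equal sums or with the trend removed). The list had 1 gene as much higher and a median of -0.17. None was as much higher with a pseudocount of 5 FPKM, a mean of at least 5 FPKM or the trend removed, and 2 were with equal sums. The shares below 0 and at least 1.2-fold lower were 77.8% and 22.2%. With equal sums or the trend removed 14 of the 18 stayed below 0, beside 47.2% and 55.2% of tested genes. The 2 of 18 at least 1.2-fold lower then stood beside 8.76% and 11.1% of tested genes. By this count the list was near the background. The kinase PIM1, at 3.81 FPKM in the Indocin library and 5.66 FPKM in the DMSO library (-0.47), and KIAA1524, which encodes the MYC-stabilising protein CIP2A, at 5.78 FPKM with Indocin and 8.12 FPKM with DMSO (-0.43), were the lowest. MLXIPL, a glucose-responsive factor of the wider MAX network, at 1.83 FPKM in the Indocin library and 1.36 FPKM in the DMSO library (0.26), and the ubiquitin ligase HUWE1, at 35.6 FPKM with Indocin and 30.2 FPKM with DMSO (0.23), were the highest.

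**Figure D4:**
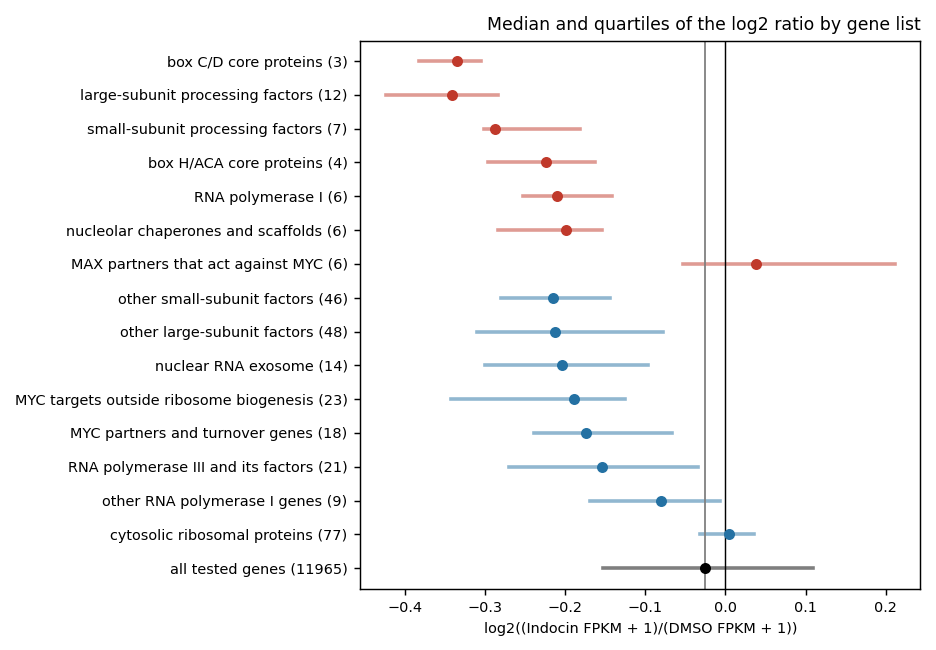
Median (point) and quartiles (bar) of the log2 ratio, Indocin over DMSO, for roles of the set (red), other lists of the pathway (blue) and all tested genes (black), with the number of genes measured in brackets. Medians of the biogenesis roles run from -0.34 to -0.20, the antagonists of MYC lie at 0.04, and ribosomal protein genes lie at 0.01.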

How the data were processed

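RNA was isolated with TRIzol and made into strand-specific mRNA libraries, per the labels' protocols, 1 library from Indocin-treated and 1 from DMSO-treated cells. The authors deposited FPKM per gene symbol, per the file headers, with the status OK on each line. The builds GRCh37 and hg19 and the tools TopHat, Cufflinks, Cuffnorm, StringTie and bcl2fastq come from the submitters' processing notes. What each tool did, the versions, the annotation and whether strand was used are not stated there, so reads of overlapping antisense genes may not be separated. Read depth is unknown and the number of libraries limits precision.

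The log2 ratio used a pseudocount of 1 FPKM. Genes entered with a mean of at least 1 FPKM, and 2042 symbols of short RNAs were left out. No count test fits FPKM, and with 1 library per group nothing was tested. Lists were counted at 1.2-fold and 1.5-fold and set beside all tested genes. The set, the lists, the 1.2-fold level and the rules were chosen with earlier results of these data known. Every gene of the set was named, and of each other list the 2 lowest and 2 highest. RAB24, PRELID1, PPAN-P2RY11, SNRNP27, HIGD2A and NHP2L1 were named after their values were seen. Length and GC content came from the longest GENCODE 29 transcript (GRCh38) by symbol, for 93.8% of tested genes and all 48 of the set, and overlaps and pseudogene names from the same annotation. No coordinates were converted. Alternatives changed the pseudocount (0.1 or 5 FPKM), the filter (none, or a mean of 5 FPKM or more), the scaling (ratios centred on their median, equal upper quartiles, or equal sums without short RNAs and BCYRN1), or added the removal of a cubic trend over length, GC content and expression. The calculation was tested on simulated data. Python 3.11.15, pandas 2.3.3, numpy 2.4.6 and matplotlib 3.10.9 were used.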

Additional observations from a re-analysis of the deposited data

How the results depend on the processing

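Of the 38 biogenesis genes 37 to 38 stayed below 0 under the 8 alternatives, with a median between -0.30 and -0.24, and 14 to 24 were at least 1.2-fold lower. No gene of the set reached 1.5-fold under any of them. MYC stayed between -0.48 and -0.41. Genes at least 1.2-fold higher numbered 2, 0 with a pseudocount of 5 FPKM, 1 with a mean of at least 5 FPKM, and 3, with MXD4, with centring, equal upper quartiles or equal sums. The median of the MYC family, of 2 genes with opposite signs, was -0.07, and became -0.11 with a pseudocount of 5 FPKM, 0.00 with no filter, -0.0423 with centring, -0.0446 with the same upper quartile, -0.0379 with the trend removed and -0.0286 with the same sum. That of MAX and the antagonists was -0.02, and became -0.01 (-0.0125) with a pseudocount of 5 FPKM, -0.0628 with a mean of at least 5 FPKM, 0.0013 with centring, -0.0048 with the same upper quartile, 0.0085 with the same sum and -0.0112 with the trend removed. Other RNA polymerase I genes had -0.0388 with the same sum and -0.0376 with the trend removed, and RNA polymerase III -0.0988 with the trend removed. Ribosomal proteins had 0.0300 with centring, 0.0294 with the same upper quartile, 0.0466 with the same sum and 0.0380 with the trend removed. The cause was not tested. The remaining 179 of 200 summary values stayed within 1.5 times. Of 566 counts over the other lists and ratios of single genes, 48 moved by more or turned in sign. Ribosomal protein genes below 0 numbered 37, and 22 with centring or the same upper quartile, 14 with the same sum and 19 with the trend removed. No paired analysis was possible because each group had 1 library.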
